A study of Mus musculus with 6 samples.

Results

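Neutrophil granule and surface genes were measured in the back skin of mice given imiquimod cream or vehicle cream. The genes were Ngp, Ltf, Mpo, Elane and Retnlg, which encode granule or other secreted proteins, and Ly6g, Trem1, Fpr1 and Fpr2, which encode proteins of the cell surface. Their probes were chosen by gene name alone, as the array files give it. Of the 9 genes, 8 had a probe, with 11 of the 41115 probes in all, and 7 were tested among 17778 genes. No probe carried the name Ly6g, so its level was not analysed here.

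Neutrophils are short-lived white blood cells that enter inflamed tissue from the blood. They carry their antimicrobial proteins in granules that are filled in order while the cell matures in the bone marrow: azurophil granules, with myeloperoxidase and elastase, are made at the promyelocyte stage, and specific granules, with lactoferrin and the mouse protein Ngp, at later stages. The surface receptors appear late and are in use in the circulating cell, where the formyl peptide receptors sense bacterial and host peptides and Trem1 amplifies inflammatory signalling. In psoriasis-like skin, neutrophils gather in the dermis and under the horny layer.

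The imiquimod group had 3 arrays of whole back skin from female C57BL/6J mice, an inbred strain, aged 6 to 8 weeks, after 7 days of 62.5 mg per day of cream with 5% imiquimod on the shaved back. Imiquimod is an agonist of Tlr7 that provokes a psoriasis-like inflammation. The vehicle group had 3 arrays of the same tissue, strain, sex and age after the same daily amount of vehicle cream. Nothing in the labels says whether the numbered samples of a group were separate animals, and the p-values therefore cover the spread among these 6 samples only, part of which may be technical. In bulk skin, fewer cells of a type and less RNA per cell cannot be told apart.

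The treatment of each array was recorded in 2 ways that conflict. In all 6 scanner files, the treatment word of the file name was the reverse of the treatment of the sample that held the file. The value table, whose columns are read by sample title, went with the file names: each of the 6 arrays had a Spearman correlation of at least 0.9999997 with the column of its file name's treatment and number, against 0.943 to 0.953 with the column of the sample it was filed under (24253 probes). The arrays were therefore grouped by the file name. Grouping them as filed turns the sign of every difference given here.

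An array had 61.2% to 67.4% of its probes well above background, and its 75th percentile, the unit of the log2 values, was a processed signal of 861 to 1106. Arrays correlated at 0.992 within the imiquimod group, at 0.960 to 0.983 within the vehicle group and at 0.942 to 0.954 between groups (Pearson). Slide 1 held imiquimod array 1 and all 3 vehicle arrays, and slide 2 held imiquimod arrays 2 and 3. Vehicle arrays 2 and 3 carried the quality status evaluate from the extraction software.

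The probes that carry the granule and receptor results are 60 bases long, and those of Ngp, Ltf, Fpr1 and Fpr2 are shown because the granule and receptor results turn on them and because Ltf and Fpr2 were each read at 2 sites. They are printed 5′ to 3′ in lower case, as read from the array files, with mm9 positions.
Ngp, chr9:110324266-110324814, plus strand, across a splice junction: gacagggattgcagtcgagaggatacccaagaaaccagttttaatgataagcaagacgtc
Ltf, chr9:110942873-110942932, plus strand: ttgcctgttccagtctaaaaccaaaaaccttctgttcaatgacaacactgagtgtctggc
Ltf, the second probe, chr9:110938264-110941314, plus strand, across a splice junction: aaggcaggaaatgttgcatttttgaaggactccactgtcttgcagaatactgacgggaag
Fpr1, chr17:18013609-18013668, minus strand: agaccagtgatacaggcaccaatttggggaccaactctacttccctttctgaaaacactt
Fpr2, chr17:18030540-18030599, plus strand: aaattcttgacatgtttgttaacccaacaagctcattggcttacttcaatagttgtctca
Fpr2, the second probe, chr17:18029929-18029988, plus strand: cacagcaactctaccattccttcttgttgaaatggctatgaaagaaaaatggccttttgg
The array files list the transcripts of both Fpr2 and its paralogue Fpr3 for that last probe, so its signal cannot be given to Fpr2 alone.

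Of the 7 tested genes, 6 were higher in imiquimod skin by limma, and Mpo, also with a positive difference, did not pass, so 0 were lower. Of all 17778 genes, 23.6% passed in either direction, 13.1% as higher and 10.5% as lower. The 2330 higher genes behind that share became 944 to 1031 without vehicle array 1 or any of the imiquimod arrays, and 5 or 6 of the set then passed. Without imiquimod array 1, the 6 held Mpo and not Retnlg. The differences of the 7 genes ranged from 1.86 to 6.38 on the log2 scale with a median of 4.91, or 4.52 with Ngp at its bound, while the median of all genes was 0.02. Only Retnlg was well above background on all 6 arrays. The other 6 reached the required 3 arrays through the imiquimod group, so their count and median describe them and are not evidence that the set stands apart. On all 7, every imiquimod array lay above every vehicle array, as it did for 25.9% of all genes.

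**Figure D1:**
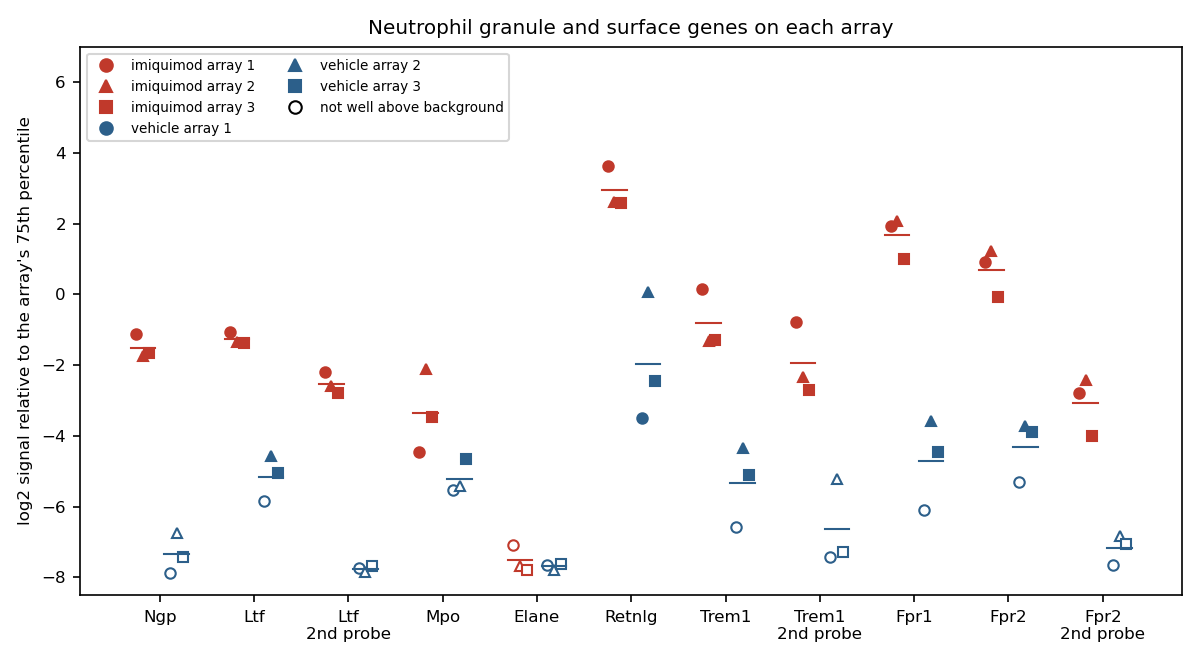
Log2 processed signal relative to the array's 75th percentile (vertical axis) for each probe (horizontal axis) on the 3 imiquimod arrays (red) and the 3 vehicle arrays (blue), with the group mean as a line and open symbols where the probe was not well above background. Heights of different probes are not comparable. The groups are apart for every probe but that of Elane, and Mpo has the narrowest gap, 0.20 on the log2 scale.

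Among the granule proteins, Ngp, a cathelicidin-related protein of mouse specific granules, was well above background in imiquimod skin only. Its processed signal was 397, 278 and 298 on the imiquimod arrays and 4.73, 9.91 and 5.50 on the vehicle arrays, none of which was well above background. The mean log2 value was -1.51 ± 0.34 in imiquimod skin and -7.34 ± 0.57 in vehicle skin (SD, n = 3 each). Ngp was at least 16.0-fold higher, with an adjusted p of 0.00127 for the fitted difference by limma. This bound takes, for each dim vehicle array, the dimmest of that array's probes well above background in place of a lower Ngp signal. A dim probe can be brighter than that limit, as the second Trem1 probe was on vehicle array 2, at 28.4. The folds given here as at least a value are therefore not strict bounds, and a higher limit would make them smaller.

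Ltf encodes lactoferrin, the iron-binding protein of specific granules. Its brighter probe had signals of 409, 370 and 364 on the imiquimod arrays and of 19.2, 44.8 and 28.4 on the vehicle arrays, 2 of which were well above background. The imiquimod arrays lay close together, and the lowest of them exceeded the highest vehicle array by 3.20 on the log2 scale. The log2 difference was 3.89 ± 0.33 (SE), or 14.9-fold, with an adjusted p of 0.00222. The second probe, which lies upstream in the transcript across a splice junction, had signals of 187, 155 and 135 on the imiquimod arrays and of 5.15, 4.59 and 4.62 on the vehicle arrays, all 3 dim. By that probe Ltf was at least 7.90-fold higher in imiquimod skin (adjusted p = 0.000582 for the fitted difference, in a fit of every tested probe).

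Mpo and Elane encode the azurophil enzymes myeloperoxidase, which makes hypochlorous acid, and neutrophil elastase, a serine protease. The Mpo probe (mm9 chr11:87617102-87617877, across a splice junction) had signals of 39.1, 215 and 85.2 on the imiquimod arrays and of 23.9, 24.6 and 37.3 on the vehicle arrays, 1 of which was well above background. Imiquimod array 2 stood high and imiquimod array 1 lay just above vehicle array 3. The log2 difference of 1.86 ± 0.61 (SE) did not pass, at an adjusted p of 0.0743. Without imiquimod array 1 it was 2.42 and passed, at an adjusted p of 0.0475, and without imiquimod array 2 it was 1.25 and did not. The Elane probe (mm9 chr10:79350763-79350822) was well above background on 0 of the 6 arrays, with signals between 4.23 and 6.30 in imiquimod skin and between 4.80 and 5.49 in vehicle skin. It was not tested, since neither group gave more than an upper bound.

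Retnlg encodes resistin-like gamma, a secreted protein found in mouse bone marrow and neutrophils, and its probe lies at mm9 chr16:48874468-48874527. Its signal was 10629, 5755 and 5638 on the imiquimod arrays and 98.8, 1105 and 171 on the vehicle arrays. The vehicle arrays spread widely, with array 2 above array 1 by 3.55 on the log2 scale, yet all lay below the imiquimod arrays. The log2 difference was 4.91 ± 0.91 (SE), or 30.0-fold, with an adjusted p of 0.0162. This call was lost without imiquimod array 1, 2 or 3, at adjusted p-values of 0.0634, 0.0540 and 0.0545, with differences between 4.57 and 5.08. The difference was 4.14 without vehicle array 1 and 5.92 without vehicle array 2, and the call held in both cases.

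Among the surface proteins, Trem1, an immunoglobulin-like receptor that signals through the adaptor Tyrobp, was higher by both of its probes. The brighter probe (mm9 chr17:48383969-48384028) had signals of 956, 374 and 383 on the imiquimod arrays and of 11.5, 52.7 and 27.6 on the vehicle arrays, 2 of which were well above background. Imiquimod array 1 stood above the other two of its group, and vehicle array 2 was the highest of its own. The log2 difference was 4.52 ± 0.68 (SE), or 22.9-fold, with an adjusted p of 0.00892, and it was 3.89 without vehicle array 1, which was dim. The second probe (mm9 chr17:48385230-48385289) had signals of 505, 185 and 145 on the imiquimod arrays and of 6.46, 28.4 and 6.06 on the vehicle arrays, all dim, which puts Trem1 at least 11.0-fold higher (adjusted p = 0.0108 for the fitted difference).

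Fpr1 encodes the formyl peptide receptor that guides neutrophils to bacterial peptides. It had signals of 3277, 3944 and 1882 on the imiquimod arrays and of 16.2, 88.8 and 42.6 on the vehicle arrays, 2 of which were well above background. Its fitted log2 difference was 6.38 ± 0.67 (SE), or 83.3-fold (adjusted p = 0.00337). Without vehicle array 1, which was not well above background, the difference was 5.69.

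Fpr2, the related receptor for serum amyloid A, cathelicidin and annexin A1, had signals of 1634, 2204 and 899 on the imiquimod arrays and of 28.0, 79.8 and 63.7 on the vehicle arrays, 2 of which were well above background. The order of the imiquimod arrays was that of Fpr1, with array 2 highest and array 3 lowest. The log2 difference was 5.01 ± 0.53 (SE), or 32.2-fold, with an adjusted p of 0.00345. The probe shared with Fpr3 had signals of 126, 173 and 58.3 on the imiquimod arrays and of 5.49, 9.32 and 7.09 on the vehicle arrays, all dim, and was at least 5.43-fold higher (adjusted p = 0.00373 for the fitted difference).

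Within slide 1, where imiquimod array 1 met the 3 vehicle arrays, the differences of the 6 genes lay between 4.08 and 6.64, with a median over the 7 of 5.49. With a single imiquimod array left, whose spread is taken from the vehicle arrays, none of the 6 passed there by limma, at adjusted p-values of 0.0630 to 0.190, although all 6 had an unadjusted p under 0.05. Of all genes 7 passed there as higher and 1 as lower. With slide as a block the estimates are the same, and 5 passed at 0.0120 to 0.0363, while Retnlg did not (5.59, adjusted p = 0.0855). Mpo differed by 0.74 within slide 1, with an adjusted p of 0.502 with the block. A normexp background correction, which raises dim signals by an offset of 50, gave smaller log2 differences, of 2.52 for Ngp, 2.25 for Ltf, 0.86 for Mpo, 4.44 for Retnlg, 2.63 for Trem1, 4.77 for Fpr1 and 3.68 for Fpr2. It kept the 6 calls.

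**Figure D2:**
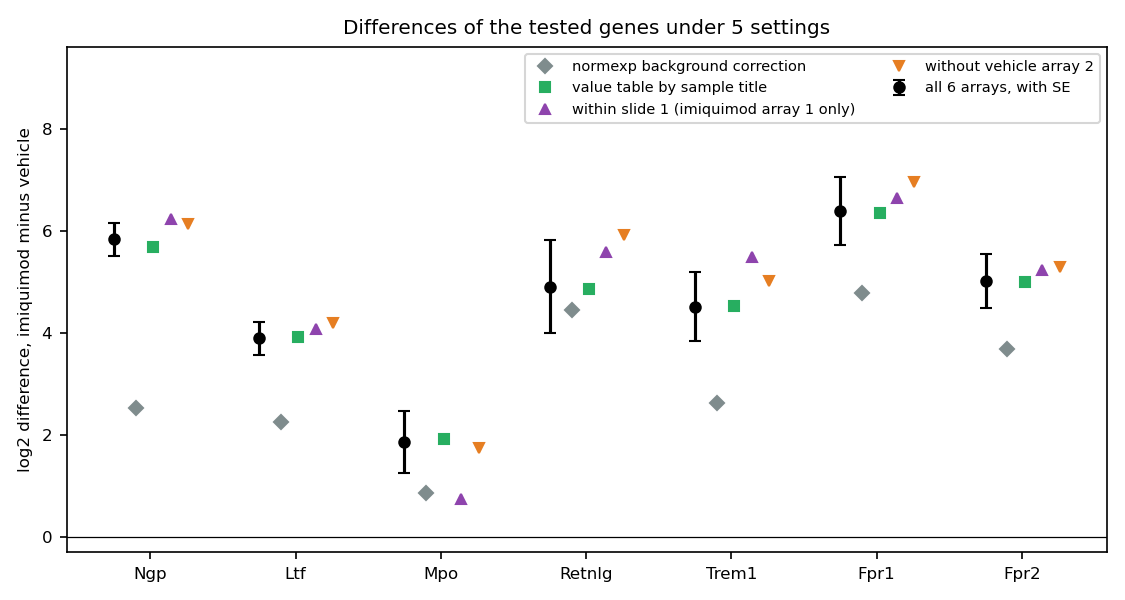
Log2 difference of imiquimod minus vehicle (vertical axis) of each tested gene (horizontal axis), from all 6 arrays with its SE (black) and under 4 other settings. The 6 genes that passed stay above 2 in each setting drawn, and the values with the normexp correction are the lowest for these 6.

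Within the groups, the imiquimod arrays had no order common to the genes, while the vehicle arrays had a single order for all but Mpo. Imiquimod array 1 was the highest of its group for 4 genes, Ngp, Ltf, Retnlg and Trem1, and imiquimod array 2 for 3, Mpo, Fpr1 and Fpr2. Vehicle array 1 was the lowest of its group for all 7 genes. It was not well above background for any of them but Retnlg, and Ngp was dim on all 3 vehicle arrays. The vehicle order therefore rests in part on dim values. Vehicle array 2 was the highest for 6 of the 7, and vehicle array 3 was the highest for Mpo. Averaged over the 7 genes, each centred on its mean, the log2 values were 2.54, 2.46 and 1.94 on the imiquimod arrays and -3.27, -1.50 and -2.17 on the vehicle arrays. Across the 6 arrays, deviations from the group means correlated at 0.97 between Ngp and Retnlg and at 0.95 between Fpr1 and Fpr2, but at -0.43 between Mpo and Ngp (Pearson). These are descriptions over 6 values that share their arrays and scaling, and the vehicle values of Ngp among them were all dim.

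Of 14889 other genes with a symbol, 79 followed the mean profile of the 7 genes at a Pearson correlation of 0.99 or more over the 6 arrays. The closest 5 were Epn3 (0.999, log2 difference 0.67), Csta1 (0.998, 2.03), Mlx (0.998, 0.43), Eml3 (0.998, 0.29) and Treml4 (0.998, 5.56). Likeness of profile ignores the size of the difference. Of the 5, only Treml4, dim on all vehicle arrays, had a fitted difference within the range of the 6 genes that passed, 3.89 to 6.38.

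The promoters of the 9 genes were searched in RefSeq (build GRCm38.p6), in the 250 bases before each start, on both strands. The letters searched were TTNNGNAA for C/EBP factors, GAGGAAG for PU.1 and TGTGGT for Runx factors, families known to drive granule genes in developing granulocytes. No match overlapped another. The 9 genes had 10 windows, since Ly6g had a second, and a gene is counted by a match in any of its windows. The C/EBP letters were found for 7 of the 9 genes, all but Mpo and Elane, and in 36.85% of 32851 single promoter windows. The PU.1 letters were found for 3 of the 9, Mpo, Elane and Ly6g, and in 10.61% of windows, and the Runx letters for 0 of the 9 and in 14.05% of windows. The windows of Ngp and Ltf, which rose, and of Mpo, which did not pass, are shown with matches in capitals.
Ngp, chr9:110419558-110419807, plus strand, 3 matches to the C/EBP letters: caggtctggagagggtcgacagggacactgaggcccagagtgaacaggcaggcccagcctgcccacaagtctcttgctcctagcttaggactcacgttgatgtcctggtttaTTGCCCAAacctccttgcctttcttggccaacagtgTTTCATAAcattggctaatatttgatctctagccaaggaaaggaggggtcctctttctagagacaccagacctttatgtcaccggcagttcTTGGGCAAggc
Ltf, chr9:111019042-111019291, plus strand, 2 matches to the C/EBP letters: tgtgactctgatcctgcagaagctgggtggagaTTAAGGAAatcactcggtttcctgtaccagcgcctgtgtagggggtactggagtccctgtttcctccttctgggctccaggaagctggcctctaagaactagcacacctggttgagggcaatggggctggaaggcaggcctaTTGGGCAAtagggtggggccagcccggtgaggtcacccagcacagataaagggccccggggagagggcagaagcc
Mpo, chr11:87793534-87793783, plus strand, 2 matches to the PU.1 letters: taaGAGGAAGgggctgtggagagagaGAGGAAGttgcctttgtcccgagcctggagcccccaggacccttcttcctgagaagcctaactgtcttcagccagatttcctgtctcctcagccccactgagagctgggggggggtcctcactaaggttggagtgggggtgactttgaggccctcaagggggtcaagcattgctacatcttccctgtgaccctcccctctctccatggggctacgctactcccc
A match is a run of letters and not a shown binding site, and a window without one says nothing about the factor.

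The other genes of the neutrophil programme were taken from lists by role, 76 genes without the 9, of which 65 were tested. Of these, 48 were higher in imiquimod skin, 1 was lower and 16 did not pass, with a median log2 difference of 2.28 (2.19 with dim groups at their bound, 2.57 within slide 1). The 48 became 29 without imiquimod array 2 and 30 without vehicle array 1. With slide as a block 17 passed as higher, and within slide 1 alone 1 did. Several are also made by keratinocytes or macrophages, among them S100a8, S100a9, Lcn2, Slpi and the stefins.

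By granule list the counts differed, although no test of that difference was made. Of the 3 tested genes of the azurophil list 1 was higher, Cd63, a membrane protein that most cells carry, by 0.70 ± 0.12 (SE, adjusted p = 0.0120). Serpinb1a, which encodes an inhibitor of neutrophil serine proteases, differed by 1.11 ± 0.36 (SE) and did not pass, at an adjusted p of 0.0725. The protease gene Ctsg differed by 0.87 with an adjusted p of 0.240, with signals of 167, 452 and 328 on the imiquimod arrays and of 249, 101 and 235 on the vehicle arrays. The median of the list is the value of Ctsg, its only tested protease gene, and is not a measure of azurophil granules as a whole. Prtn3, which encodes proteinase 3, was well above background on 0 imiquimod arrays and 2 vehicle arrays, and Bpi on none, so neither was tested.

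Of the 8 tested genes of specific and gelatinase granules, 7 were higher and 1 did not pass, with a median of 3.63. Lcn2, which encodes the siderophore-binding lipocalin 2, had signals of 2372, 2465 and 1469 on the imiquimod arrays and of 75.9, 145 and 108 on the vehicle arrays, a log2 difference of 4.46 ± 0.34 (SE, adjusted p = 0.00178). Mmp9, gelatinase B, was higher by 2.80 ± 0.26 (SE, adjusted p = 0.00266). Olfm4 was well above background on no array, and Cd177 on 2 imiquimod arrays and no vehicle array.

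Of the 19 tested surface genes, 16 were higher and 3 did not pass, with a median of 2.54 (2.36 with dim groups at their bound). The 2 of smallest p were Pilra, an inhibitory receptor of myeloid cells, by 3.65 ± 0.19 (SE, adjusted p = 0.00116), and the C-type lectin Clec4d, by 4.74 ± 0.63 (SE, adjusted p = 0.00626). Among the 22 genes of the cytosol, oxidase and signalling, 17 were higher, 1 was lower and 4 did not pass, with a median of 2.14. S100a8, a subunit of calprotectin, was higher by 7.11 ± 0.82 (SE, adjusted p = 0.00434) and the stefin Stfa2 by 4.68 ± 0.56 (SE, adjusted p = 0.00476). The lower gene, named after its value was seen, was Wfdc21, at -1.81 ± 0.41 (SE, adjusted p = 0.0274).

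Of the 4 tested granulocyte transcription factors, only Spi1, which encodes PU.1, passed, by 1.73 ± 0.33 (SE, adjusted p = 0.0179). Gfi1 differed by 1.01 with an adjusted p of 0.0586. Among 6 tested attractants of neutrophils, 4 were higher and 2 did not pass. The serum amyloid gene Saa3 was higher by 8.31 ± 0.69 (SE, adjusted p = 0.00207), and Cxcl3, a ligand of Cxcr2, at least 18.1-fold (adjusted p = 0.00297 for the fitted difference). Of the 5 genes whose products bind the formyl peptide receptors, 4 were higher, Saa3, Saa1 by 4.97 ± 0.43 (SE, adjusted p = 0.00230), Saa2 and Camp. Anxa1 differed by 0.05 with an adjusted p of 0.835.

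**Figure D3:**
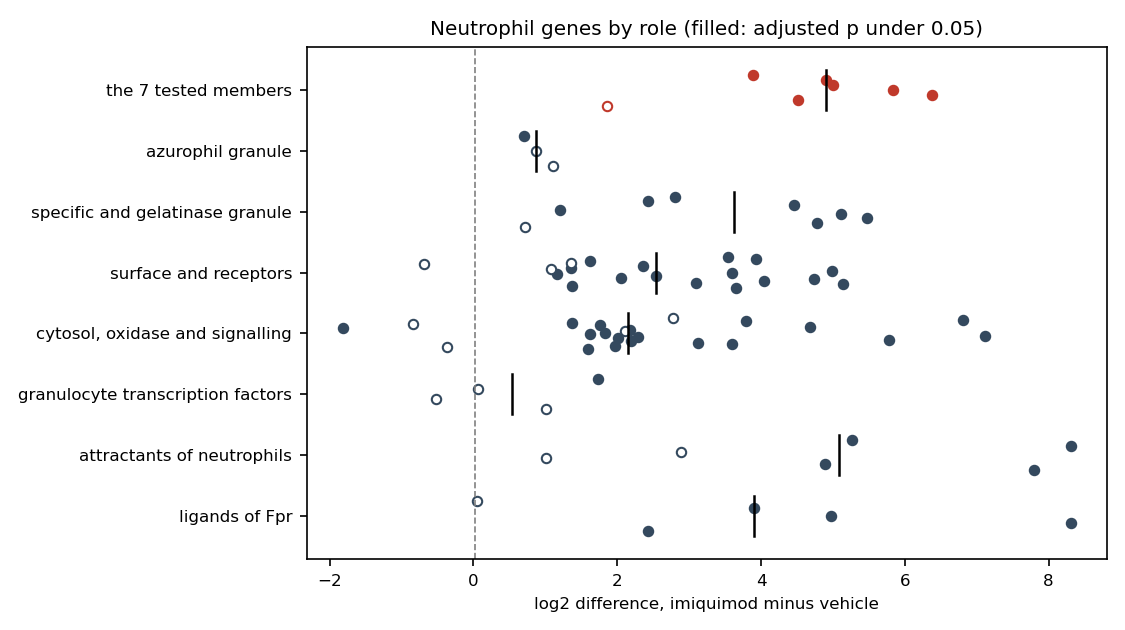
Log2 difference of imiquimod minus vehicle (horizontal axis) for every tested gene of each role list (rows), with the 7 genes of the set in red, filled symbols for an adjusted p under 0.05, a bar at each list's median and a dashed line at the median of all genes. The specific and gelatinase list has a median of 3.63 and the azurophil list 0.87, from 8 and 3 genes. The azurophil median is the value of Ctsg.

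Markers of other cell types also moved between the groups, and their part in the values of the neutrophil genes was not tested. Beside the counts of the lists below, 13.1% of all tested genes passed as higher and 10.5% as lower. Levels are summed over a list in units of the array's 75th percentile, and the brightest probes dominate such a sum. Of the 12 tested genes of the neutrophil list, which holds the 7 of the set, 11 were higher. The sum was 791 to 912 on the imiquimod arrays and 4.05 to 44.7 on the vehicle arrays, with no overlap. S100a8 and S100a9, named above as also made by other cells, were the brightest of the 12 on every array and made up most of it. On the imiquimod arrays their signals were at least 222619 and 487001, against at most 10629 for Retnlg, the next brightest. The sum therefore says little about the other genes of the list. Of 11 macrophage and monocyte genes 3 were higher, led by Adgre1 at 2.74 (adjusted p = 0.0111). The sums overlapped, at 158 to 188 on the imiquimod arrays and 66.5 to 196 on the vehicle arrays. Ly6c2, the brightest of the 11, differed by -0.15 and did not pass. Its signal reached 63215 on the imiquimod arrays and 119812 on the vehicle arrays. For 6 of the 11, every imiquimod array lay above every vehicle array, as for 25.9% of all genes. Of 7 tested mast cell genes 6 were higher, led by Fcer1a at 3.87 (adjusted p = 0.00167), with sums of 62.5 to 85.4 on the imiquimod arrays and 18.1 to 38.1 on the vehicle arrays.

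Eosinophils also carry granules and peroxidase, and of their 5 genes on the array 2 were tested and 0 passed by limma, 1 of them with an unadjusted p under 0.05. That gene, Siglecf, which encodes a surface lectin, differed by 1.94 with an adjusted p of 0.125. Ccr3, the other tested gene, differed by -0.25 with an adjusted p of 0.674. Prg2 was not tested, with signals of 21.6, 28.0 and 46.9 on the imiquimod arrays, 2 of them well above background. Its vehicle signals were 5.04, 4.64 and 19.3, all dim. The eosinophil peroxidase gene Epx and the receptor gene Il5ra were well above background on no array. The sums of the 2 tested genes overlapped, at 0.08 to 0.12 on the imiquimod arrays and 0.05 to 0.16 on the vehicle arrays. Both tested genes of erythroid cells and bone marrow missed the threshold, with Alas2 at 2.24 (adjusted p = 0.0621), sums of 31.3 to 137 on the imiquimod arrays and 7.34 to 27.2 on the vehicle arrays, and Klf1 dim on all arrays. Of 3 platelet genes 1 was higher, Gp9, at least 1.73-fold (adjusted p = 0.0497), with sums of 19.6 to 25.3 on the imiquimod arrays and 8.64 to 36.5 on the vehicle arrays.

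Of 6 tested T cell genes 1 was lower, Lck at -1.09 (adjusted p = 0.0218), with sums of 0.65 to 1.49 on the imiquimod arrays and 1.94 to 3.24 on the vehicle arrays. Of 6 dendritic and Langerhans cell genes 1 was lower, Cd207 at -1.89 (adjusted p = 0.0137), with sums of 1.45 to 1.66 on the imiquimod arrays and 1.59 to 3.03 on the vehicle arrays. Both tested B cell genes were higher, led by Cd79b at 4.21 (adjusted p = 0.00275), with sums of 1.37 to 3.02 on the imiquimod arrays and 0.11 to 0.18 on the vehicle arrays, while Ms4a1 and Pax5 were dim on all arrays. Cd79a, the partner of Cd79b, was not tested, with signals of 6.75, 19.8 and 17.4 on the imiquimod arrays, all dim, and of 25.0, 52.0 and 31.2 on the vehicle arrays, 2 of them well above background. The keratinocyte markers of skin were well above background on all 6 arrays: Krt14 was higher by 2.25 (adjusted p = 0.00155), 3 of 6 keratinocyte genes were higher, and their sums were 1965 to 2177 on the imiquimod arrays and 1045 to 1371 on the vehicle arrays. Of 5 fibroblast genes 3 were higher, led by Col1a1 at 0.89 (adjusted p = 0.00361), with sums of 949 to 1070 on the imiquimod arrays and 583 to 825 on the vehicle arrays. Of 3 endothelial genes 2 were higher, led by Cdh5 at 1.18 (adjusted p = 0.0103), with sums of 4.09 to 4.64 on the imiquimod arrays and 1.93 to 3.00 on the vehicle arrays.

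**Figure D4:**
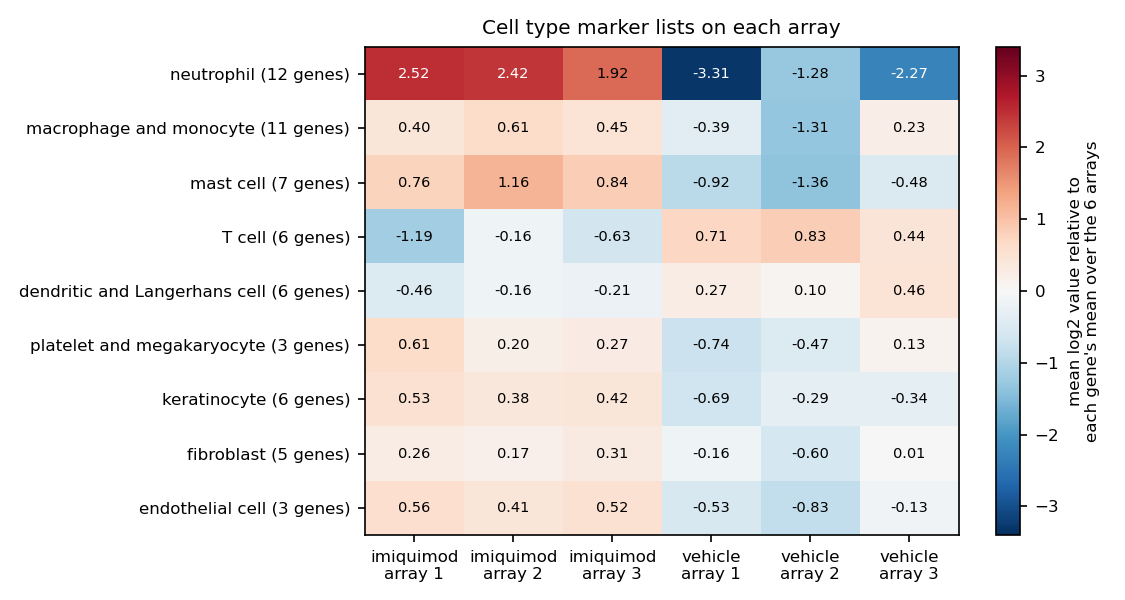
Mean log2 value of each marker list (rows, with the number of tested genes, for lists of at least 3) on each array (columns), centred gene by gene on the mean of the 6 arrays. The neutrophil list spans the widest range, from -3.31 on vehicle array 1 to 2.52 on imiquimod array 1. It holds the 7 genes of the set, which all but Retnlg reached the filter through the imiquimod group. All but Retnlg of these were dim on vehicle array 1, so the range is not evidence that the list stands apart.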

How the data were processed

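Total RNA of whole back skin, extracted with TRIzol per the labels, was measured on 6 single-colour (Cy3) arrays. The authors deposited scanner files with spot intensity on a linear scale, background-subtracted and detrended per the file headers by Agilent Feature Extraction 10.7.3.1 (the submitters' processing notes name 9.1), and a value table on a log2 scale whose normalization is not given in the sources used here. Control spots and 322 outlier-marked spots were left out. Values are the log2 processed signal minus the array's 75th percentile. Probes well above background on at least 3 of 6 arrays were tested, and a gene took its tested probe of highest mean. Genes were named through RefSeq accessions (27644 probes), as a synonym (470) or by the file. The test was two-sided, by lmFit and eBayes of limma 3.58.1 (R 4.3.3), Benjamini-Hochberg adjusted over 17778 genes at 0.05. The steps were tested on simulated data. The number of arrays limits the precision. Same-numbered arrays did not pair: their deviations from the group means correlated at -0.0872, 0.0676 and 0.0854. The genes and lists were chosen with earlier results of these data known. Named were all probes of the set, the 2 genes of smallest p of each neutrophil list, the 1 of each other list and the 5 nearest profiles. Ctsg, Anxa1, Saa2, Camp, Cd79a, S100a9, Ly6c2, Prg2, Ccr3 and genes named as dim were added after their values were seen, as were the second probes as an alternative.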

Additional observations from a re-analysis of the deposited data

How the results depend on the processing

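Apart from grouping the arrays as filed, 18 settings gave 116 values for the 7 tested genes: 0 reversed, 105 kept their side of the threshold, 10 lost it and 1 gained it. The gain was Mpo without imiquimod array 1 (2.42, adjusted p = 0.0475). Grouped as filed, the differences were -5.84 for Ngp, -3.89 for Ltf, -1.86 for Mpo, -4.91 for Retnlg, -4.52 for Trem1, -6.38 for Fpr1 and -5.01 for Fpr2, with 0 of the set and 1 other neutrophil gene higher. The filter on all 6 arrays left Retnlg alone of the set, so 1 was called. Within slide 1, 0 of the set, 1 other neutrophil gene, and 7 higher and 1 lower of all genes were called, with 1 imiquimod array. With slide as a block, the differences rest on imiquimod array 1 against the vehicle arrays, since slide 2 held imiquimod arrays only. That block gave 17 other neutrophil genes and 541 higher and 518 lower of all genes. The replicate block gave 31, 1164 and 1043, and kept the 6 calls at adjusted p-values of 0.0157 to 0.0488. Leaving out 1 array gave 5 to 6 of the set, 29 to 52 other neutrophil genes (29 without imiquimod array 2, 30 without vehicle array 1), and 944 to 2514 higher and 745 to 2215 lower of all genes, against 2330 and 1866 with all 6; leaving out vehicle array 1 or any imiquimod array gave at most 1031 and 854. Without vehicle arrays 2 and 3, whose negative controls averaged 40.9 and 45.2 against 31.7 to 37.6 on the others, the differences of the 6 genes were 4.59 to 7.76 and the calls held, but against vehicle array 1 alone, which was dim for all of them but Retnlg and is assumed to vary like the imiquimod arrays. The value table gave 3.92 to 6.34 for the 6 genes. Dim vehicle signals limit the fold of Ngp and of the second probes to bounds.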

Other observations

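Relatives of these genes did not all move with them. Of 16 tested paralogues 6 were higher in imiquimod skin, 1 was lower and 9 did not pass, with a median log2 difference of 0.73. The lower gene was Retnla, which encodes resistin-like alpha, a relative of Retnlg made by macrophages and other cells in type 2 responses. Its processed signal was 1276, 2263 and 2323 on the imiquimod arrays and 59034, 20747 and 45215 on the vehicle arrays, a log2 difference of -4.15 ± 0.43 (SE, adjusted p = 0.00336), with every imiquimod array below every vehicle array. Retn, which encodes the adipocyte hormone resistin in mice, differed by -0.24 with an adjusted p of 0.671. Lpo, which encodes lactoperoxidase, a secreted relative of myeloperoxidase, had signals of 2015, 6847 and 3683 on the imiquimod arrays and of 137, 448 and 80.4 on the vehicle arrays, a log2 difference of 4.63 ± 0.70 (SE, adjusted p = 0.00901).

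In the Trem family, Treml4 was at least 21.8-fold higher in imiquimod skin (adjusted p = 0.00234 for the fitted difference) and Trem3 at least 5.51-fold (adjusted p = 0.0138), both dim on all 3 vehicle arrays. Trem2, a receptor of macrophages, was higher by 1.42 ± 0.20 (SE, adjusted p = 0.00775). Of the Ly6 family, whose member Ly6g had no probe of its name, Ly6d was higher by 0.99 (adjusted p = 0.00997), while Ly6c1, Ly6c2, Ly6a, Ly6e and Ly6k lay between -0.64 and 0.75 and did not pass. Fpr-rs3 and Fpr-rs4 were well above background on no array. The genes in these paragraphs other than Treml4 were named after their values were seen.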
